A study of Mus musculus with 2 samples.

Results

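The genes described are 29 that make, sense, move, store or clear cholesterol, taken as a fixed list of names and matched to the deposited gene tables by gene identifier. All 29 were matched, out of 21461 nuclear protein-coding genes in those tables. Of them, 18 encode steps of synthesis, and 11 encode sterol sensing, uptake and efflux, release from lysosomes, esterification and oxidation. The list does not hold every gene of the pathway. The RNA came from 2 areas cut by laser from cerebral cortex, layer 5, each covering 8000 square microns and entered as 50 cells, with spike-in RNA added. The donor was a male mouse of wild-type genotype, 8 months old and with no treatment named, its strain given as C57Bl6 in one label and B6NCrl in another. The labels number the areas as biological replicates 1 and 2 under the same donor. They form 1 group with no other condition, so each difference below sets 1 library against 1 library and has no test, and every SD is the spread between these areas.

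Cholesterol is built in the cytosol and endoplasmic reticulum from acetyl-CoA, first through mevalonate to farnesyl diphosphate, then through squalene and lanosterol to the finished sterol. Lipoprotein cholesterol hardly crosses the blood-brain barrier, so the brain depends on its own synthesis, and most of its cholesterol sits in myelin and cell membranes. When membrane sterol is low, Scap carries the precursor of the transcription factor encoded by Srebf2 to the Golgi for cleavage, and Insig1 holds that complex back when sterol is plentiful. Astrocytes export cholesterol on lipoprotein particles, neurons and other cells take these up, and neurons dispose of excess by hydroxylating it.

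Replicate 1 held 26059117 and replicate 2 held 28276843 expected counts, which are estimated reads per gene. Layer 5 markers were present in both areas: all 8 reached 1 TPM, a length-scaled abundance, and Pcp4 had 2922 and 3599 TPM. Markers of excitatory neurons (8 of 8), oligodendrocytes (8 of 8), microglia (10 of 10), GABAergic neurons (7 of 8) and astrocytes (7 of 8) also reached 1 TPM in both, so the areas are mixed tissue. In such mixed tissue, fewer cells of a type and less RNA per cell cannot be told apart.

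The pathway was expressed almost throughout. In both areas 28 of the 29 genes reached 1 TPM, against 51.4% of all protein-coding genes, and the exception, Abca1, had 1.28 TPM in replicate 1 and 0.83 TPM in replicate 2. The 29 genes together held 0.190% ± 0.0128 (SD, n = 2) of all counts. The 18 synthesis genes had a median of 21.1 TPM in replicate 1 and 34.6 TPM in replicate 2. The 11 other genes had medians of 12.5 and 13.6 TPM. Across the 11828 protein-coding genes whose mean reached 1 TPM, which include all 29, the medians were 11.5 and 12.3 TPM. The fewest counts behind any of the 29 genes in a library were 187.

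**Figure D1:**
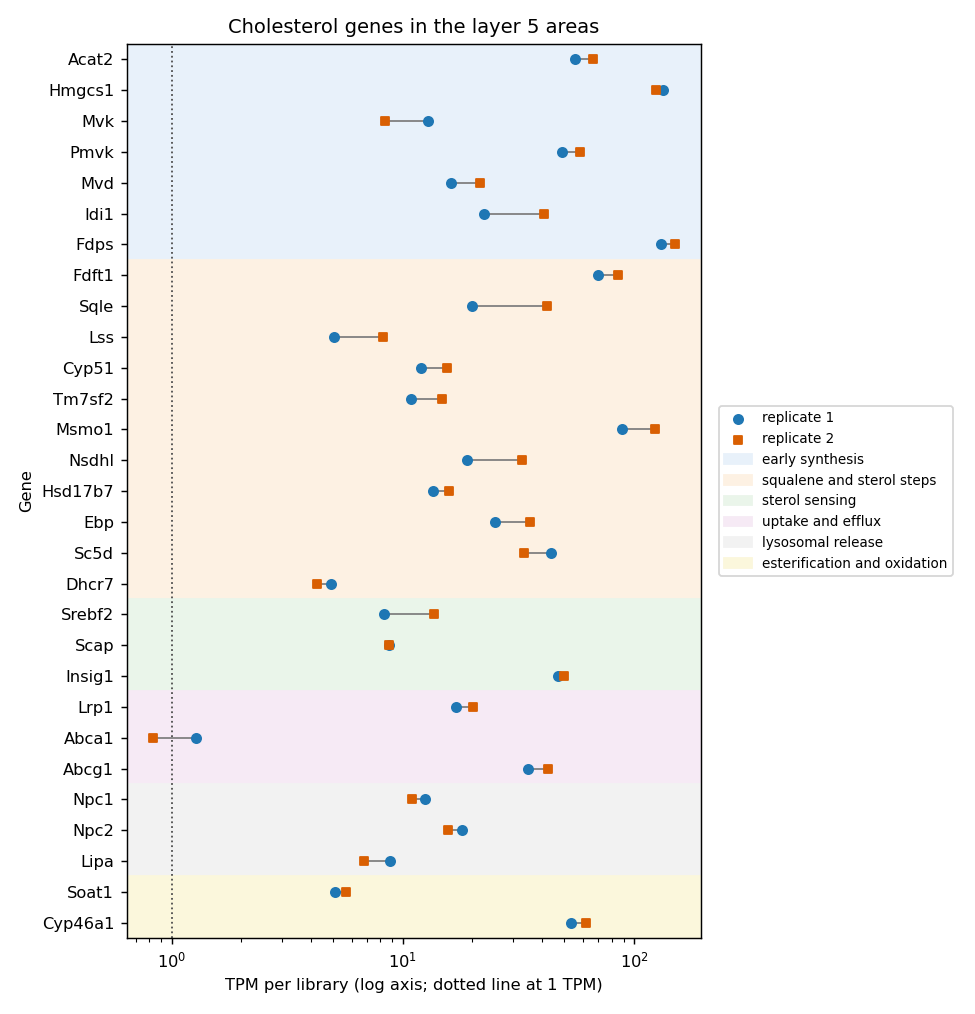
TPM of each of the 29 cholesterol genes in replicate 1 (circles) and replicate 2 (squares) on a log axis, in pathway order with a background colour for each role. Fdps and Hmgcs1 lie furthest right, above 120 TPM in both libraries, and Abca1 lies at the dotted line of 1 TPM.

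The steps from acetyl-CoA to farnesyl diphosphate held the most abundant genes of the pathway. Fdps, which encodes farnesyl diphosphate synthase (chromosome 3, 89093588 to 89101959 on mm10), had 131 TPM in replicate 1 and 149.8 TPM in replicate 2. Hmgcs1, the synthase that makes hydroxymethylglutaryl-CoA (chromosome 13, 119690379 to 119708260), had 133 and 124 TPM and ranked 899th and 1001st among the protein-coding genes. Both genes were the upper end of the list in each library, and the order between them differed between the areas. Acat2, the cytosolic thiolase that opens the route, had 55.6 and 66.5 TPM. Pmvk, phosphomevalonate kinase, had 48.9 and 58.6 TPM. These 2 kept their order in both areas and lay well below Fdps. Idi1, which isomerises isopentenyl diphosphate, had 22.4 TPM in replicate 1 and 40.6 TPM in replicate 2. Mvd, the decarboxylase that forms isopentenyl diphosphate, had 16.2 and 21.5 TPM. Mvk, mevalonate kinase, was the lowest of the 7 with 12.9 and 8.38 TPM, so the consecutive kinases Mvk and Pmvk were unlike in level in both areas. The group had medians of 48.9 and 58.6 TPM.

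Of the 24 genes with a promoter window, 20 held a CCAAT box, 23 a GC box and 3 the searched core of the sterol response element. The 4 stretches below show these motifs in the 3 genes with the core and in 1 gene without it. RefSeq windows from 250 bases before to 50 bases after the transcription start (GRCm38.p6, the assembly of mm10) were found for 24 of the 29 genes. Fdps, Fdft1, Sqle, Abcg1 and Npc1 had no window. The windows were searched on both strands for CCAAT, the box bound by nuclear factor Y, and for GGGCGG, the GC box bound by Sp1. They were also searched for CACNCCAC, a core of the sterol response element, and for no other spelling of that element. The stretches of Hmgcs1 and Acat2 came from the rule for genes with the core, while Nsdhl and the short site of Insig1 were chosen after the values were seen. The stretches of Hmgcs1, Acat2 and Nsdhl were kept free of annotated exons. The core of Insig1 lies in an annotated exon, and the last 9 bases of its stretch follow the RefSeq start. Capitals mark matches to any of the 3 motifs on either strand, and each line reads 5′ to 3′ along the gene. The stretches are chr13:119690101-119690347 on the plus strand for Hmgcs1, chr17:12960748-12960921 on the minus strand for Acat2, chrX:72918412-72918520 on the plus strand for Nsdhl and chr5:28071393-28071420 on the plus strand for Insig1.
Hmgcs1: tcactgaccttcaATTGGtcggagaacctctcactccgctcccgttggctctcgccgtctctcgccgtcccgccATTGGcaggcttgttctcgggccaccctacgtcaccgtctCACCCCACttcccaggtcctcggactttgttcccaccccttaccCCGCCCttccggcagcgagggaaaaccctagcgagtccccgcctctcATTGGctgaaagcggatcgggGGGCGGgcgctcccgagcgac
Acat2: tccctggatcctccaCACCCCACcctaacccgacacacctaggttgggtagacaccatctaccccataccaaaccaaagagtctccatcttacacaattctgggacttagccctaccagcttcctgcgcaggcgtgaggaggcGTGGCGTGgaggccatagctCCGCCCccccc
Nsdhl: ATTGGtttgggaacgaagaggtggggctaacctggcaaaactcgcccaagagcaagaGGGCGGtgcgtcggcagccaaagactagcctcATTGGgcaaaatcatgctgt
Insig1: gtgtagtgtcGTGGCGTGtaccttccat
The Hmgcs1 stretch holds 1 core, 3 CCAAT boxes and 2 GC boxes, that of Acat2 holds 2 cores and 1 GC box, and that of Nsdhl holds 2 CCAAT boxes and 1 GC box. Over the whole windows, CCAAT was found in 20 of 24 genes and in 14 of the 15 synthesis genes with a window, against 37.4% of all 32851 windows and 43.2% of the 9329 genes whose mean reached 1 TPM and that have a window. The GC box was found in 23 of 24 genes, against 35.7% of all windows and 69.6% of the expressed genes. The core was found only in the windows of Hmgcs1, Acat2 and Insig1, 3 of 24, against 6.24% of all windows and 7.76% of the expressed genes. Matches of different motifs can share bases at their ends. These matches describe letters in these windows and are not measured binding sites.

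Past farnesyl diphosphate the levels varied widely from step to step. Fdft1, squalene synthase, had 69.5 TPM in replicate 1 and 85.3 TPM in replicate 2. Sqle, squalene epoxidase (chromosome 15, 59315077 to 59331192), had 19.9 and 41.8 TPM. Lss, the cyclase that closes the rings to lanosterol, had 5.05 and 8.22 TPM. In both areas these 3 consecutive enzymes therefore stood in falling order along the route. Cyp51, lanosterol demethylase, had 12.0 TPM in replicate 1 and 15.5 TPM in replicate 2. Tm7sf2, a sterol reductase, had 10.8 and 14.7 TPM. Msmo1, the methyl sterol oxidase that removes methyl groups from the ring, had 88.4 and 124 TPM. By gene TPM it was the highest of the 11 enzymes of this stage in each area. Fdft1 had more counts in both, 4130 and 5239 against 3481 and 4640, on a longer transcript, 2860 against 2044 bases. By the transcript with the most counts, Msmo1 had 69.5 and 80.9 TPM against 69.5 and 85.3 TPM for Fdft1. Nsdhl, a sterol dehydrogenase of the same demethylation, had 19.0 and 32.8 TPM. Hsd17b7, the ketoreductase that completes it, had 13.5 and 15.9 TPM. Ebp, the sterol isomerase, had 25.02 TPM in replicate 1 and 35.6 TPM in replicate 2. Sc5d, sterol desaturase, had 43.6 and 33.5 TPM. Dhcr7, the reductase that finishes cholesterol from its dehydro precursor, had 4.87 and 4.25 TPM, the lowest gene TPM of the 18 synthesis genes in both areas. By the transcript with the most counts Lss was lower, with 0.98 and 1.88 TPM against 4.43 and 4.09 TPM for Dhcr7. This stage had medians of 19.0 and 32.8 TPM.

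Among the sensing genes, the brake was more abundant than the factor it controls. Insig1 had 47.0 TPM in replicate 1 and 49.8 TPM in replicate 2. Srebf2 had 8.33 and 13.6 TPM, and Scap had 8.68 and 8.74 TPM. Insig1 was thus several times the level of both partners in each area, while the order of Srebf2 and Scap differed between the areas.

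Efflux and uptake genes were unequal. Abcg1, a transporter that passes cholesterol to lipoprotein particles, had 34.9 TPM in replicate 1 and 42.6 TPM in replicate 2. Abca1, which loads lipid onto free apolipoproteins, had 1.28 and 0.83 TPM, the lowest of all 29 genes in both areas. Lrp1, a large endocytic receptor for apolipoprotein E particles, had 17.1 and 20.1 TPM. Most of the Lrp1 TPM belonged to Lrp1-208, a transcript of 763 bases annotated as a retained intron, with 13.3 and 15.2 TPM. The full-length Lrp1-201 of 14888 bases had 3.51 and 4.56 TPM although it held 84.5% and 86.2% of the gene's counts.

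Genes that release or store cholesterol were lower than most of the synthesis genes, and the hydroxylase of neurons was among the most abundant. Cyp46a1, which turns cholesterol into a hydroxysterol that leaves the brain (chromosome 12, 108334381 to 108362234), had 53.2 TPM in replicate 1 and 62.2 TPM in replicate 2. Its mean of 57.7 ± 6.33 TPM (SD, n = 2) exceeded that of 83.2% of the expressed protein-coding genes. In the lysosome, Npc2, the soluble carrier, had 18.1 and 15.7 TPM. Npc1, the membrane protein that receives cholesterol from it, had 12.5 TPM in replicate 1 and 10.9 TPM in replicate 2. Lipa, the acid lipase that frees cholesterol from its esters, had 8.76 and 6.78 TPM. All 3 lysosomal genes were higher in replicate 1, as were 45.8% of all expressed protein-coding genes. Soat1, which esterifies cholesterol for storage, had 5.08 and 5.66 TPM.

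For several genes the TPM of the whole gene rested on short transcripts that hold few reads. Of the 14 genes whose mean reached 20 TPM, 9 were listed with several transcripts, and in all 9 the same transcript led in both areas. In 7 of those 9 the leading transcript held over 95% of the gene's TPM in both, and the exceptions were Msmo1 and Ebp. For Msmo1, Msmo1-201 held 78.6% of the TPM in replicate 1 and 65.4% in replicate 2, and Msmo1-206, annotated as a processed transcript, held 17.5% and 30.8%. For Ebp, Ebp-201 held 45.3% and 54.5%, the shorter coding Ebp-203 held 33.4% and 28.4%, and the retained-intron transcript Ebp-202 held 21.3% and 17.1%. Below 20 TPM, Lss was divided among several transcripts. Its Lss-204, a retained-intron transcript of 6992 bases, held 45.4% and 81.7% of its counts but 19.5% and 22.9% of its TPM. Npc1-203, of 352 bases, held 39.1% and 54.5% of the Npc1 TPM from 26.6 and 33.6 counts. Soat1 changed its order with the scale, from higher TPM in replicate 2 to more counts in replicate 1, 814 against 507, a 1.74-fold larger share of counts (exact binomial 95% interval 1.56 to 1.95). In replicate 2, Soat1-204, of 821 bases, held 35.7% of the gene's TPM from 32.5 counts, and in replicate 1 it had 0 counts. Intervals of this kind cover the counting error of reads only and treat each read as independent. The reads carry no molecular identifiers, so copies of the same molecule are not told apart, and the intervals may be too narrow.

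**Figure D2:**
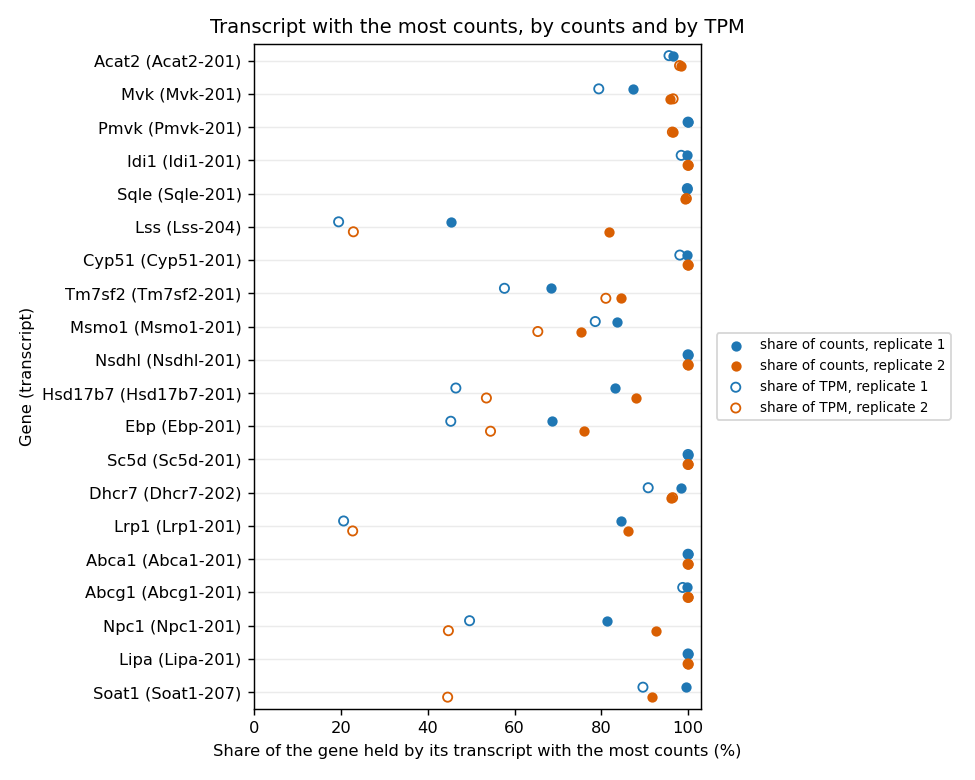
For the 20 genes with several listed transcripts, the share of the gene held by the transcript with the most counts, as a percent of counts (filled) and of TPM (open), in replicate 1 (blue) and replicate 2 (orange). The open points of Lrp1, at 20.6% and 22.7%, lie far left of its filled points, and those of Acat2, Pmvk and Idi1 all lie above 95%.

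Near-identical sequence and overlapping exons limit a few of these values. Fdps has processed pseudogenes, among them Gm3571, whose match covers 85.9% of the Fdps transcript at 98.9% identity and which had 0.61 and 0.45 TPM. Acat2 matches the neighbouring Acat3 over 65.6% of its transcript at 97.7% identity, and Acat3 had 0.68 TPM in replicate 1 and 0 in replicate 2. Acat2 also matches Tcp1, an abundant chaperonin gene at 174 and 191 TPM, over 445 bases, 19.8% of its transcript, at 98.7% identity. An identical stretch of 684 bases links Idi1 to the pseudogene Gm13502, listed at 9.50 and 4.41 TPM. The authors' posterior SD of the count, which measures how far reads shared between genes could move it, was largest for Idi1 at 1.41% of its count in replicate 1. Fdft1 shares 774 exon bases with Ctsb, a lysosomal protease gene on the opposite strand at 258 and 315 TPM, Npc1 shares 511 with Rmc1, and Cyp51 shares 166 with Akap9. Tm7sf2 shares 532 exon bases with Vps51 on the same strand. Fdps shares 1124 exon bases, also on the same strand, with Gm43738, an annotated protein-coding gene without a value in these data. The strand setting of the counting is not given in the sources used here, so reads of these pairs cannot be assigned with certainty.

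Synthesis genes were mostly higher in replicate 2. On the scale log2(TPM + 1), 14 of 18 were higher there and 4, Hmgcs1, Mvk, Sc5d and Dhcr7, were higher in replicate 1. Among all expressed protein-coding genes, 54.0% were higher in replicate 2. The median log2 ratio of replicate 1 over replicate 2 was -0.32 over the 18 genes and -0.05 over all genes. The early steps had a median of -0.26 with 5 of 7 genes higher in replicate 2. The squalene and sterol steps had -0.41 with 9 of 11. The same 14 of 18 count was obtained under each of 8 alternatives, which were other scalings, pseudocounts or transcript choices. The other pseudocount could not change a sign. TPM over nuclear genes alone shifted ratios of TPM by only about -0.0174 before the pseudocount was added.

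Sqle was the gene that differed most. It had 1137 counts in replicate 1 and 2481 in replicate 2, a 2.01-fold larger share of counts in replicate 2 (1.87 to 2.16). Its log2 ratio of -1.04 made it 1 of 29 genes beyond 2-fold, against 10.3% of all genes beyond 2-fold in either direction and 5.31% more than 2-fold higher in replicate 2. Its log2 ratio was -0.99 when centred on the median gene and -0.87 when scaled to the spike-ins, so that 0 genes were beyond 2-fold under either. Idi1 had 1391 and 2649 counts, 1.76-fold more in replicate 2 (1.64 to 1.87). Nsdhl had 844 and 1511 counts, 1.65-fold more (1.52 to 1.80). Srebf2, the regulator, had 877 and 1483 counts, 1.56-fold more (1.43 to 1.70). These 4 genes were higher in the same area, and the abundant Fdps, at 1.09-fold (1.04 to 1.14), and Fdft1, at 1.17-fold (1.12 to 1.22), differed less.

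Some genes of the same route went the other way. Sc5d had 2017 counts in replicate 1 and 1602 in replicate 2, 1.37-fold more in replicate 1 (1.28 to 1.46). Mvk had 400 and 298 counts, 1.46-fold more in replicate 1 (1.25 to 1.70). Hmgcs1, with 8990 and 8670 counts, was 1.13-fold higher in replicate 1 (1.09 to 1.16). For Dhcr7, with 238 and 233 counts, the interval of the 1.11-fold difference ran from 0.921 to 1.33, so no difference was detectable at this depth. Lss had 1.63-fold more TPM in replicate 2, but its counts of 321 and 353 gave 1.01-fold (0.869 to 1.18).

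**Figure D3:**
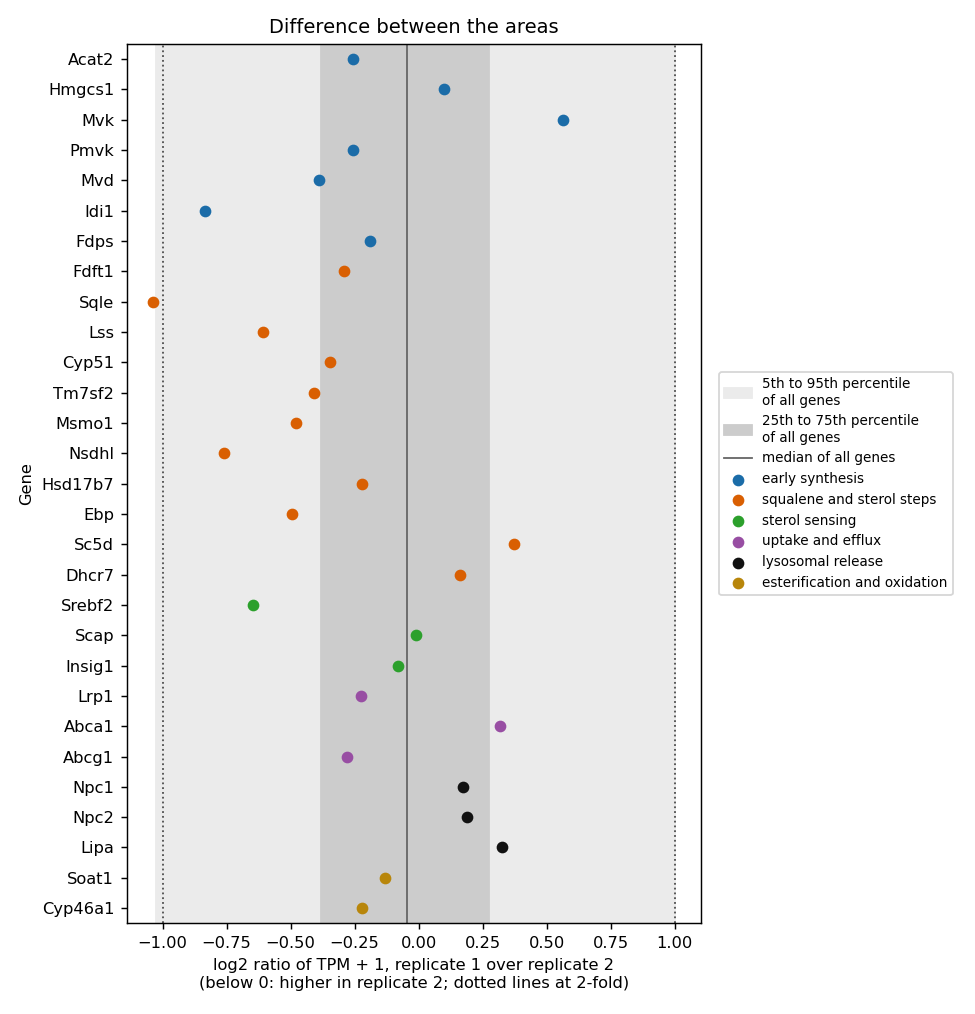
Log2 ratio of TPM + 1, replicate 1 over replicate 2, for each of the 29 genes, coloured by role, over the spread of all expressed protein-coding genes (dark band, 25th to 75th percentile; light band, 5th to 95th). Sqle lies outside the light band, 9 genes lie left of the dark band and 4 lie right of it.

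The 11 other genes went both ways between the areas. Srebf2, above, was higher in replicate 2, while Abca1, Npc1 and, by counts, Soat1 were higher in replicate 1. Of the 11 genes, 7 were higher in replicate 2, against 54.0% of all expressed genes, and 4 in replicate 1. Their median log2 ratio was -0.08. This median changed sign with the scaling, to 0.09 with spike-in scaling and to 0.03 and 0.02 with CPM, counts scaled to library size. For these 2 values the size came from nuclear counts with TMM factors and with DESeq2 size factors, in that order. Scap differed by -0.01 on the log2 scale and Insig1 by -0.08. Their signs were not stable: Scap was above 0 under 4 of the 8 alternatives and Insig1 under spike-in scaling. The 3 lysosomal genes were above 0 under all 8, with 1.51-fold more counts of Npc1 in replicate 1 (1.36 to 1.68), 1.36-fold more of Lipa (1.19 to 1.54) and 1.21-fold more of Npc2 (1.11 to 1.31). By TPM, Npc1 differed only 1.14-fold. Its retained-intron transcript Npc1-205 had 109.63 counts in replicate 1 and 0 in replicate 2, while Npc1-201 had 684 and 559. Abca1 had 281 and 187 counts, 1.63-fold more in replicate 1 (1.35 to 1.97). Abcg1 had 2616 and 3326 counts, 1.17-fold more in replicate 2 (1.11 to 1.23). Cyp46a1 had 2314 and 2795 counts, 1.11-fold more in replicate 2 (1.05 to 1.18).

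Markers of several cell types moved between the areas in the same directions. All 8 oligodendrocyte markers were higher in replicate 2, where most synthesis genes were, with summed levels of 570 and 1114 TPM. Of the 8 excitatory neuron markers 7 were higher in replicate 2, with sums of 1428 and 1653 TPM, and of the 8 astrocyte markers 5 were, with 857 and 1056 TPM. Layer 5 markers were higher in replicate 2 for 6 of 8, with sums of 3103 and 3851 TPM. Pcp4 alone made 94.2% and 93.4% of these sums. Among all expressed protein-coding genes, 54.0% were higher in replicate 2. The 18 synthesis genes summed to 732 TPM and 881 TPM. Of the 10 microglial markers 9 were higher in replicate 1, where the lysosomal genes and Abca1 were, with sums of 399 and 126 TPM. The lysosomal genes summed to 39.3 and 33.4 TPM. Endothelial markers were higher in replicate 1 for 4 of 6, with sums of 118 and 59.1 TPM, and mural markers for 4 of 5, with 22.9 and 6.88 TPM and Acta2 at 0 counts in both areas. Erythrocyte markers summed to 16.0 and 586 TPM, with 4 of 5 higher in replicate 2. Oligodendrocyte precursor markers summed to 10.6 and 30.5 TPM, of which Olig1 alone made 8.51 and 27.42 TPM. Of these 5 markers 3 were higher in replicate 2, 1 was higher in replicate 1, and Pdgfra was equal at 0.71 TPM. In both areas 3 of the 5 were under 1 TPM. GABAergic markers summed to 1610 and 3174 TPM, led by Pvalb in replicate 1 and by Sst in replicate 2. Sst alone made 90.1% of the replicate 2 sum. Of the 8 markers 5 were higher in replicate 2 and 3, Gad1, Slc32a1 and Pvalb, in replicate 1. Their summed counts went the other way, with 49558 and 43990. No marker of the oligodendrocyte, excitatory neuron, astrocyte, microglial or endothelial lists was at 0 counts in both. The part of these cell types in the differences of the cholesterol genes was not tested.

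**Figure D4:**
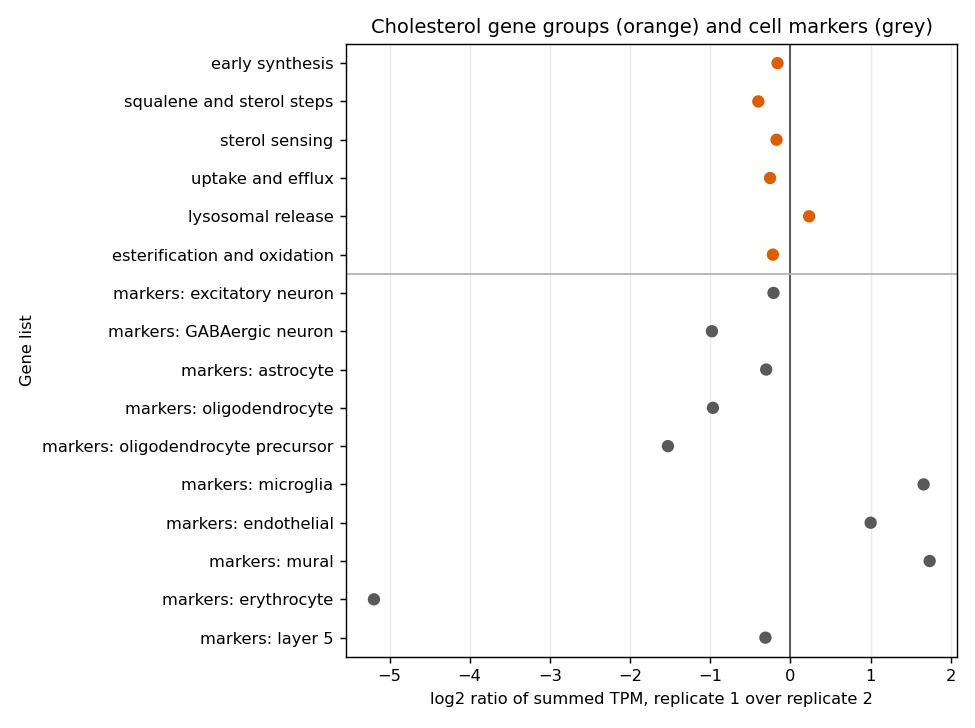
Log2 ratio of summed TPM, replicate 1 over replicate 2, for the 6 groups of cholesterol genes (orange) and the marker lists (grey). The cholesterol groups lie between -0.40 and 0.23, while the oligodendrocyte list lies at -0.97 and the microglial list at 1.66.

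Other sterol genes, a list of 31, were also widely expressed: 27 reached 1 TPM in both areas, against 51.4% of all protein-coding genes. Their median log2 ratio was 0.03, with 17 of 31 higher in replicate 1, against 45.8% of all expressed genes, and 14 in replicate 2. Lipoprotein genes led. Apoe, the main lipid carrier of the brain, had 587 TPM in replicate 1 and 645 TPM in replicate 2. Clu, another apolipoprotein, had 232 and 329 TPM. Abcg4, a relative of Abcg1, had 14.1 and 13.8 TPM. The apolipoproteins were thus above every synthesis gene in both areas, and every other gene of that subgroup was below 15 TPM.

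The remaining control genes were modest in level. Insig2, the second brake, had 19.7 and 25.4 TPM, below Insig1 in both areas. Nr1h2, a nuclear receptor for oxysterols, had 11.5 and 15.1 TPM. Mbtps2, the protease of the final cut that frees the sterol-responsive factor, had 12.4 ± 2.03 TPM (SD, n = 2). Nr1h3, the other oxysterol receptor, was under 1 TPM in both, with 26 counts in replicate 1 and 0 in replicate 2, and a count of 0 allows up to 3 counts. That is 0.106 CPM in replicate 2, here scaled to the total of all counts.

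The branches that leave the route before squalene had 4 of 4 genes at 1 TPM in both areas. The genes of intracellular transport had 6 of 6, against 51.4% of all protein-coding genes. Ggps1, which makes geranylgeranyl diphosphate, had 32.0 and 43.8 TPM. Dhdds and Nus1, the subunits of the enzyme that starts dolichol, had 28.4 against 26.2 and 20.96 against 18.4 TPM. Tmem97, a sterol-regulated membrane protein, had 28.7 and 37.6 TPM. Gramd1b and Gramd1a, which carry cholesterol from the plasma membrane to the endoplasmic reticulum, had 29.9 against 25.6 and 18.3 against 26.7 TPM. These named genes lay within the range of the synthesis enzymes, while Osbp, at 4.47 and 2.77 TPM, lay below all of them in both areas.

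Enzymes of esters and oxysterols were low apart from Nceh1, a hydrolase of cholesterol esters, at 72.4 and 73.8 TPM. Cyp7b1, which acts on oxysterols, had 9.29 and 7.67 TPM. Cyp27a1, a mitochondrial sterol hydroxylase, had 1 count in replicate 1 and 68 in replicate 2, a 62.7-fold difference whose interval ran from 10.9 to 2511. Ch25h, another hydroxylase, was under 1 TPM in both areas, with 1.13 and 0 counts. Of the cholesterol hydroxylases listed, Cyp46a1 was thus the highest in both areas.

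**Figure D5:**
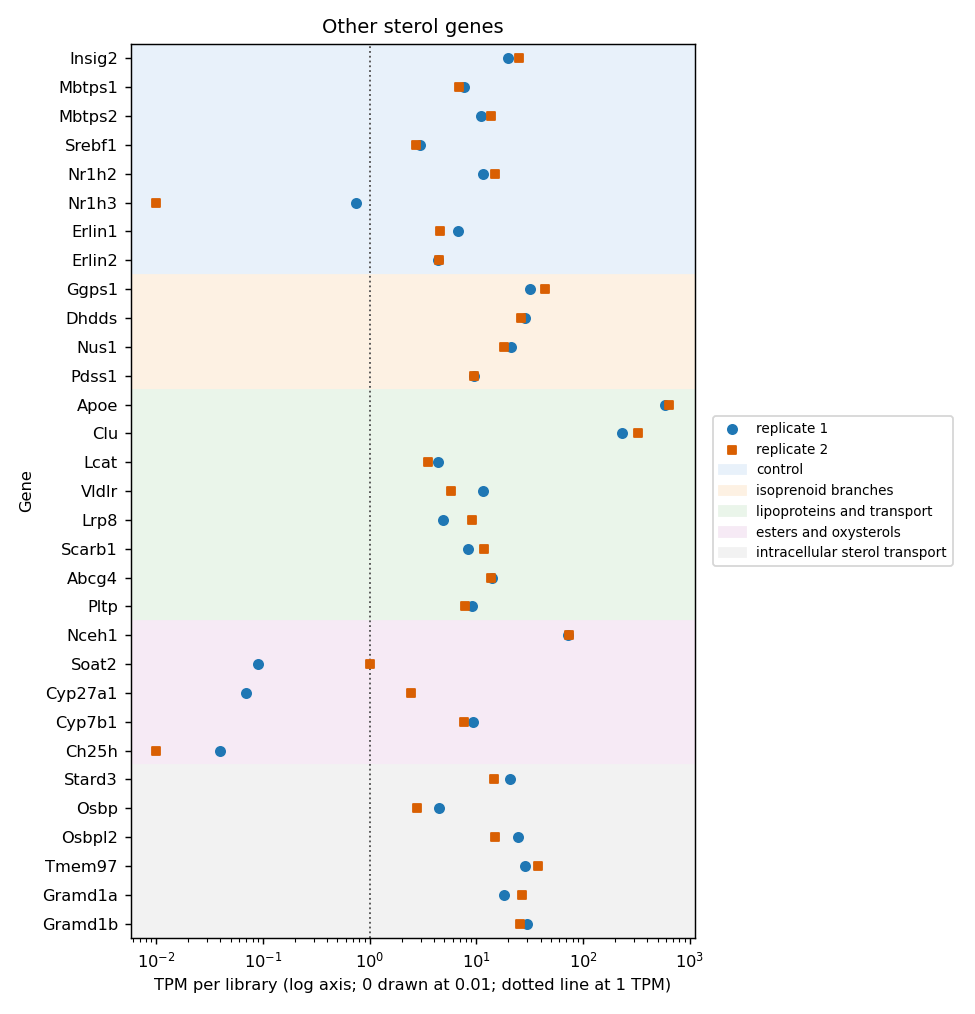
TPM of the 31 other sterol genes in replicate 1 (circles) and replicate 2 (squares) on a log axis, with 0 drawn at 0.01 and a background colour for each subgroup. Apoe and Clu lie furthest right, and Cyp27a1, Soat2, Nr1h3 and Ch25h are the genes with a point left of 1 TPM.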

How the data were processed

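RNA of 2 laser-captured layer 5 areas had been made into Smart-seq type libraries, per the labels' protocols. Per the accompanying deposited text files, reads were referred to mm10 with annotation release M4. The deposited gene and transcript tables gave expected counts (estimated reads), TPM scaled by the authors to 1 fixed sum over all features, spike-ins included, and each transcript's percent of its gene's TPM. The columns are those of RSEM, while the program, aligner, trimming and strand setting are not given in the sources used here. Expected counts were rounded for intervals and for CPM.

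Symbols, coordinates and exons came from GENCODE M21 on the same assembly. Of 43346 Ensembl gene rows, 42462 had a symbol. The 26248 rows named by a number held 20.3 and 5.00 counts and were left out, and spike-ins held 7.19% and 7.94% of counts. The libraries were not copies of each other, with a chi-square per degree of freedom of 69.5 over 14131 features with 50 counts or more. The members and lists were chosen with earlier results of these data known. All 29 members are accounted for. Of the 31 other sterol genes the rule named up to 3 per subgroup with the highest mean TPM and those under 1 TPM in both areas; Soat2, Vldlr, Lrp8, Osbpl2, Stard3 and Osbp were named after their values were seen. Isoforms were named at 20 TPM or more and a share of 10% or more, and those of Lrp1, Lss, Npc1 and Soat1 after their values were seen.

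Ratios were differences of log2(TPM + 1), on which changes of low genes come out too small, and single genes also got the ratio of counts per total with an exact conditional binomial (Clopper-Pearson) 95% interval. The ratio of counts and its interval were run on simulated counts with known folds and counting error only. The simulation held no further spread between libraries, so it could not test how well the intervals hold for these areas. Near-identical transcripts were searched with blastn 2.17.0 at 95% identity or more over 100 bases or more. Promoter sequences are from RefSeq. The labels give 1 donor for both areas, so spreads may be technical or within 1 animal. TMM factors came from edgeR 4.0.16 and size factors from DESeq2 1.42.0 in R 4.3.3. Tables were handled with pandas 2.3.3 and numpy 2.4.6 under Python 3.11.15, intervals with scipy 1.17.1 and figures with matplotlib 3.10.9. Alternatives were a pseudocount of 0.1, posterior mean TPM, TPM over nuclear genes, CPM, centring, spike-in scaling, other TPM minimums and leaving out a library. The TPM of the transcript with the most counts was added after seeing the data.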

Additional observations from a re-analysis of the deposited data

How the results depend on the processing

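The number of genes at 1 TPM in both areas was between 27 and 29 under every alternative tried. The synthesis median was 27.8 TPM over both areas, 21.1 and 34.6 TPM in the single areas, and 44.8 TPM as a mean over genes. The median of the 11 other genes was 13.1 TPM, 12.5 and 13.6 TPM in the single areas, 16.9 TPM over nuclear genes alone, 20.5 TPM as a mean, and 8.71 TPM with the transcript of most counts in place of the gene, an alternative chosen after seeing the data. The share of counts was 0.219% of nuclear counts. Spike-in scaling shifted ratios of TPM by 0.175 on the log2 scale, less for low genes once the pseudocount was added, and gave medians of -0.06 over the 29 genes, -0.15 over the synthesis genes and 0.09 over the 11 others. The last was 0.03 with TMM factors and 0.02 with DESeq2 size factors. With spike-in scaling or centring, 0 genes were beyond 2-fold in place of 1. Of 232 values for single genes, 193 moved by less than the counting error and 39 by more. Under all 8 alternatives, of which the other pseudocount could not change a sign, 26 of 29 genes kept theirs. A ratio could not be computed without either library. No paired analysis was possible because there is 1 group. Counting error limits Dhcr7, Scap, Insig1 and Lss, whose intervals include no difference.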

Other observations

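The receptors for apolipoprotein E and reelin differed in opposite directions between the areas. Vldlr had 1347 counts in replicate 1 and 734 in replicate 2, 1.99-fold more in replicate 1 (exact binomial 95% interval 1.82 to 2.18), at 11.6 and 5.85 TPM. Lrp8 had 634 and 1142 counts, 1.66-fold more in replicate 2 (1.51 to 1.83), at 4.87 and 9.10 TPM. Each side is 1 library, so the difference between the receptors was not tested. Of the 6 genes of intracellular sterol transport, 4 were higher in replicate 1, against 45.8% of all expressed genes. Besides Gramd1b these were Osbpl2 with 24.4 and 15.1 TPM, Stard3 with 20.6 and 14.6 TPM, and Osbp with 4.47 and 2.77 TPM. Tmem97 and Gramd1a went the other way, with log2 ratios of -0.38 and -0.52. Gramd1b had 1.17-fold more TPM in replicate 1 but a 2.00-fold larger share of counts (1.82 to 2.20), so its TPM and its counts differ in size.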
